A study of Rattus norvegicus with 18 samples.

Results

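The chemokine system of rat liver was described gene by gene across 3 groups of 6 male Wistar rats. Members were the genes whose symbol is that of a chemokine ligand (Ccl, Cxcl, Xcl, Cx3cl), a chemokine receptor (Ccr, Cxcr, Xcr, Cx3cr) or an atypical chemokine receptor (Ackr) followed by a number. This gave 56 of the 32623 genes in the files, 34 ligands and 22 receptors. Of these, 30 (21 ligands and 9 receptors) reached at least 10 counts in 6 or more of the 18 livers and were tested, among 13265 genes tested in all. Control rats received standard chow and normal water for 12 weeks. NASH rats inhaled CCl4, a hepatotoxin, with phenobarbital in their drinking water for 6 weeks and were then fed the HFCD, a diet high in fat and cholesterol, for 4 weeks. NASH-CH rats, a model of cirrhosis on NASH, inhaled CCl4 with phenobarbital for 24 weeks, the last 16 of them together with the HFCD. Each liver gave 1 library, and ages were not given. Durations differed between the 3 groups, so time and treatment cannot be told apart. Hepatocyte markers such as Alb were abundant in every library, and the 8 markers summed to between 83048 and 187634 CPM, the counts scaled to a library total that TMM had adjusted.

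Chemokines are small secreted proteins that direct leukocytes along concentration gradients through receptors coupled to Gi proteins. Some are made in response to tissue injury and cytokines (Cxcl1 and Cxcl2 for neutrophils, Ccl2 for monocytes, Cxcl10 for activated T cells), and others organise resting and lymphoid tissue (Cxcl12, Cxcl13, Ccl19, Ccl21). Atypical receptors bind chemokines without Gi signalling and remove them. In steatohepatitis, chemokines are known for the recruitment of monocytes, neutrophils and lymphocytes into the liver.

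The proximal promoters of 6 ligands are shown because their genes carried the main patterns below: Cxcl1, Cxcl2, Cxcl10 and Ccl7 moved together between rats of 1 group, and Ccl21 and Cx3cl1 were higher in NASH-CH livers. Each run is the 250 bases before the RefSeq start site in GRCr8, 5′ to 3′ on the gene's strand. The expression data were counted on another build, Rnor_6.0, and were not joined to these positions. Capitals mark matches on either strand to a kappaB-type motif (GGANNTTCC) or to an interferon response-type motif (TTTCNNTTT).
Cxcl1 (chr14:17479322-17479571, minus strand): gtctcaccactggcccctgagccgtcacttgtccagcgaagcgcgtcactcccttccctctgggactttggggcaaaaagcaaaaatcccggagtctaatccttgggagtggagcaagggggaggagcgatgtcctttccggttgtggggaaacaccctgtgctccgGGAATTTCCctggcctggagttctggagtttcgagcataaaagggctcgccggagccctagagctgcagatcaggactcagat
Cxcl2 (chr14:17467256-17467505, minus strand): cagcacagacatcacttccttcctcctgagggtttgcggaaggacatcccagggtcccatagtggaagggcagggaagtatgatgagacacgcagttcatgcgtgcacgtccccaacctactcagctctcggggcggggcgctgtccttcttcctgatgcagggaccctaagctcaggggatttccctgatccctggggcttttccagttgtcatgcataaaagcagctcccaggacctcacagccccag
Cxcl10 (chr14:15988816-15989065, plus strand): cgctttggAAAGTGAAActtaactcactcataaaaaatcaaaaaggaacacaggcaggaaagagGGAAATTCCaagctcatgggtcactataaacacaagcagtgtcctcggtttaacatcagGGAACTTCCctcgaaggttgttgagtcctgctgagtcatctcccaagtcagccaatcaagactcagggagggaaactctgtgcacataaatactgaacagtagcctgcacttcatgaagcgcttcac
Ccl7 (chr10:67513845-67514094, plus strand): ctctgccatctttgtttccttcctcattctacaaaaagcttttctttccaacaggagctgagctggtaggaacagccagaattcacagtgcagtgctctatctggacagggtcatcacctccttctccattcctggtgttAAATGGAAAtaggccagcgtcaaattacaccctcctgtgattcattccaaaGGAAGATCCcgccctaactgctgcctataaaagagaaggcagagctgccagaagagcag
Ccl21 (chr5:61777516-61777765, minus strand): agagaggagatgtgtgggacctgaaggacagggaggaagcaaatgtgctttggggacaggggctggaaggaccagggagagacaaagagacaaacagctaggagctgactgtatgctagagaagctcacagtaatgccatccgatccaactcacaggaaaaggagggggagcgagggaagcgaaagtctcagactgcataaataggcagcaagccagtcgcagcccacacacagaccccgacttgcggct
Cx3cl1 (chr19:10242821-10243070, minus strand): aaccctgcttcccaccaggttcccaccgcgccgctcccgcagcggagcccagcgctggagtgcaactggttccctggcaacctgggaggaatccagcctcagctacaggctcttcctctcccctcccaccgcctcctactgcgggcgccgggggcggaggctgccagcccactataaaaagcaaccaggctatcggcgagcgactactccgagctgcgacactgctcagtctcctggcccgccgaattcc
Of the 43 members with a promoter in the table, 8 (18.6%) held the kappaB-type motif, against 1126 of 33469 promoters (3.36%). The members were Cxcl1, Cxcl6, Cxcl10, Cxcl11, Ccl7, Ccl12, Ccl24 and Ccr3. Cxcl10 held it at 2 positions. The interferon response-type motif was in 7 of 43 (16.3%), against 3453 of all promoters (10.3%), and Ccl7, Cxcl10 and Cxcl11 held both motifs. No match to these letters was found in the windows of Cxcl2, Ccl21 or Cx3cl1. The stretch gggatttcc in the Cxcl2 window comes close to the kappaB-type motif without matching it, and near matches were not counted. A match describes the letters alone, and binding was not measured.

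Between NASH and control rats, 1 of the 30 tested members passed the test (3.33%; limma-voom, adjusted p under 0.05), against 2.94% of all genes tested. Between NASH-CH and control rats 7 members passed (23.3%), against 16.7% of all genes. Of these, 4 were higher (13.3%, against 8.23% of all genes) and 3 lower (10.0%, against 8.5%). None passed between NASH-CH and NASH rats by limma-voom, where 4.14% of all genes did. The smallest adjusted p of a member there was 0.0748, and 5 members had an unadjusted p under 0.05. There edgeR's quasi-likelihood test called 2 members and 644 of all genes, and DESeq2 4 members and 986 genes. The 6 rats of both groups did not overlap for 2 members between NASH and control (3.11% of all genes) and for 4 members between NASH-CH and control (7.06% of all genes). The median log2 fold change of the 30 members was -0.23 in NASH and 0.06 in NASH-CH, beside 0.01 for all genes in both comparisons. Both comparisons share the control rats.

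**Figure D1:**
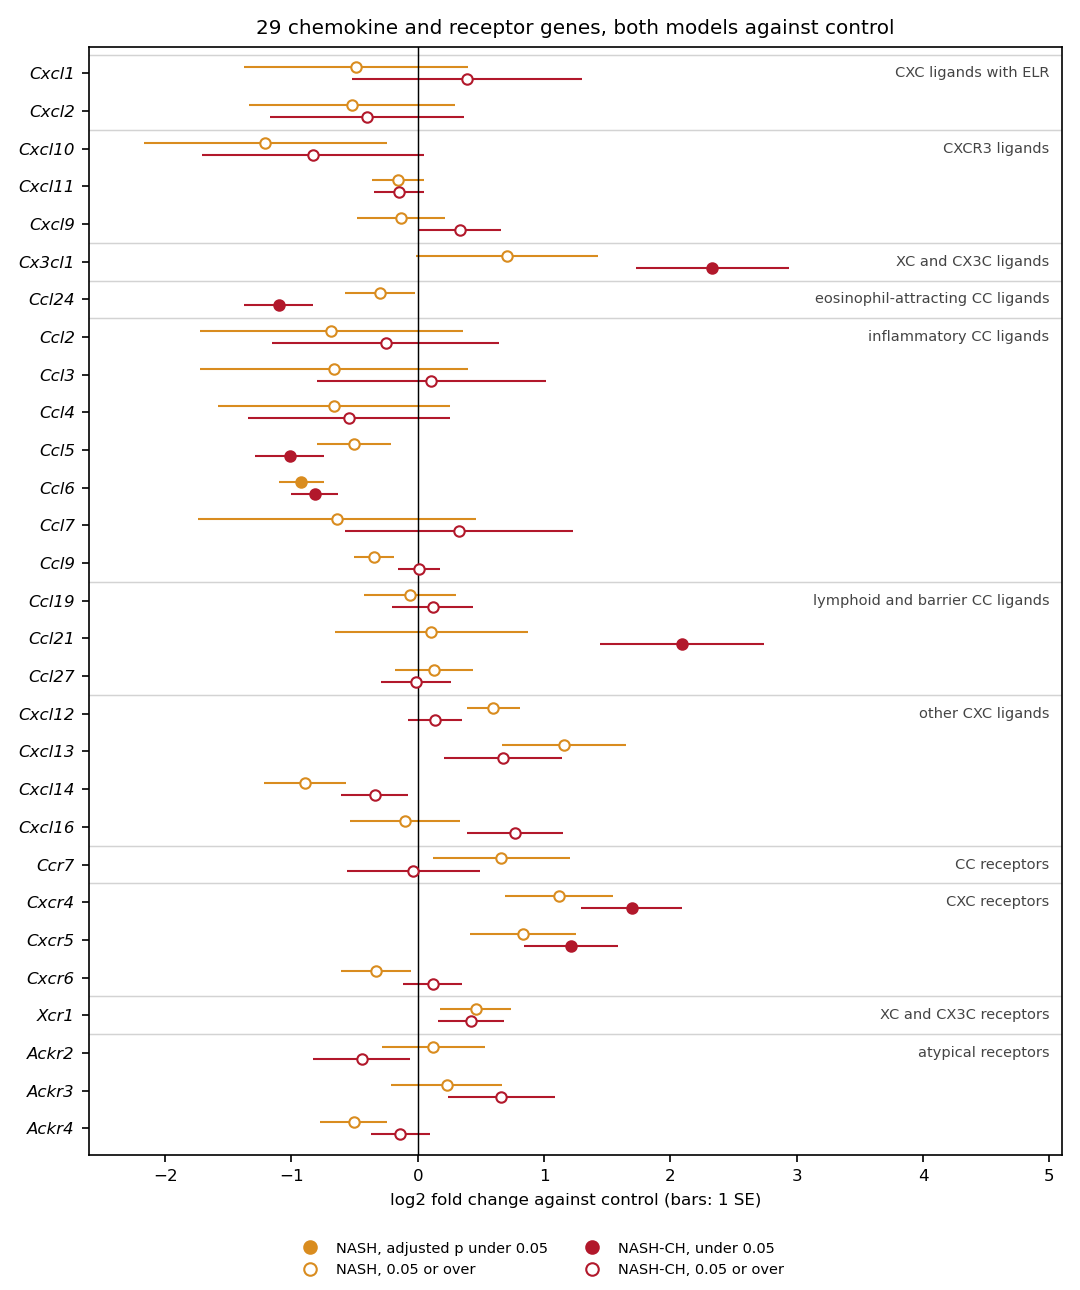
Log2 fold change against control (horizontal axis, bars 1 SE) of 29 tested chemokine and receptor genes in NASH (orange) and NASH-CH rats (red), 6 rats per group, grouped by role. Filled points passed the test: Ccl6 in both models, and Cxcr4, Cxcr5, Cx3cl1, Ccl21, Ccl5 and Ccl24 in NASH-CH. The widest bars belong to Cxcl1, Cxcl2, Cxcl10, Ccl2, Ccl3, Ccl4 and Ccl7.

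Several libraries stood apart. The NASH-CH libraries were deeper (44680344 to 60117822 counts) than those of control (19498534 to 27174015) and NASH rats (20827770 to 29491947), so depth and group cannot be told apart; with NASH-CH counts thinned to the mean control depth the same 7 members passed. NASH-CH rat 5 held the highest CPM of the NASH-CH rats for 14 of 30 members (46.7%), against 25.6% of all genes. Control rats 1 and 5 and NASH rat 3 were low in a group of ligands that varied widely between control rats. In bulk liver, fewer cells of a type and less RNA per cell cannot be told apart.

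Cxcr4, the receptor of Cxcl12 on most leukocytes, rose in NASH-CH livers. Its level was between 0.624 and 3.91 CPM in control rats (median 2.00), between 2.62 and 6.68 in NASH rats (median 4.63) and between 4.82 and 14.8 in NASH-CH rats (median 5.20). All 6 NASH-CH rats were above every control rat, and the highest value was that of rat 5, with the other NASH-CH rats at 6.17 or below. The log2 fold change was 1.69 ± 0.40 (SE, 6 rats against 6; adjusted p = 0.0077), a 3.23-fold difference, and 1.42 without rat 5 (adjusted p = 0.0034). In NASH the log2 fold change was 1.12 ± 0.43 (adjusted p = 0.14), with 4 of 6 rats above every control rat. DESeq2 and limma-voom with sample quality weights called Cxcr4 higher in NASH, with adjusted p-values down to 0.035. Its ligand Cxcl12, made by stromal and endothelial cells, was at 50.2 to 115 CPM in control (median 70.8), 90.4 to 130 in NASH (median 114) and 38.6 to 120 in NASH-CH livers (median 86.2). Rat 5 held the lowest of these values. For Cxcl12 the fold change in NASH livers was 0.60 ± 0.21 on the log2 scale (adjusted p = 0.12), and that in NASH-CH livers 0.13 ± 0.22 (adjusted p = 0.70). Limma-voom with sample quality weights or with library size only called Cxcl12 higher in NASH, with adjusted p-values down to 0.014. Ackr3, the atypical receptor that takes up Cxcl12 and Cxcl11, was at 2.68 to 18.5, 5.01 to 19.7 and 10.6 to 24.6 CPM in the same order and did not pass in either comparison. Control rats 1 and 5, at 2.68 and 3.42 CPM, held the 2 lowest values of Ackr3.

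Cxcr5, the receptor that guides B cells and follicular T cells towards Cxcl13, rose in NASH-CH livers. It was a low-count gene, with 2 to 9 counts in control, 6 to 24 in NASH and 22 to 42 in NASH-CH rats. In CPM these were 0.0992 to 0.561 (median 0.279), 0.231 to 0.822 (median 0.441) and 0.378 to 0.800 (median 0.653). No control library reached 10 counts, and without the NASH-CH libraries Cxcr5 would not have met the count minimum. Its entry to the test therefore rested on the group where it was higher, which was also sequenced deeper. Control and NASH-CH rats overlapped, with 4 of 6 NASH-CH rats above every control rat. Cxcr5 was 2.32-fold higher in NASH-CH (log2 fold change 1.21 ± 0.37, adjusted p = 0.033). This call was lost when control rat 3, 4 or 5 or NASH-CH rat 2 or 6 was left out, in 5 of 18 fits, where the adjusted p reached 0.0877. Bcl9l overlaps Cxcr5 in RefSeq, and how reads there were assigned was not given in the sources used here. Cxcl13, its ligand, was at 0.215 to 0.706 CPM in control (median 0.582), 0.840 to 1.33 in NASH (median 1.11) and 0.310 to 1.78 in NASH-CH rats (median 0.926). Every NASH rat was above every control rat, but the log2 fold change of 1.16 ± 0.49 did not pass (adjusted p = 0.18). With the 2 groups fitted alone limma-voom called Cxcl13 higher (adjusted p = 0.032). In NASH-CH the log2 fold change of Cxcl13 was 0.67 ± 0.46 (adjusted p = 0.34), with rat 5 at the lowest value of its group. Of the markers fixed for lymphoid cells, 0 of 4 tested T cell genes and 0 of 3 tested B and plasma cell genes passed in any comparison by limma-voom. T cell markers summed to 8.50 to 15.1 CPM in control, 9.94 to 14.2 in NASH and 11.3 to 21.6 in NASH-CH rats, the highest being rat 5. B and plasma cell markers summed to 0.663 to 2.94, 1.31 to 2.43 and 1.24 to 3.20 CPM, and none of either list was at 0 in all rats. The part of these cells in the levels of Cxcr4 and Cxcr5 was not tested.

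Cx3cl1, the membrane-anchored ligand fractalkine, rose 5.03-fold in NASH-CH livers. It was at 0.151 to 0.424 CPM in control (3 to 11 counts, median 0.317 CPM), 0.342 to 0.790 in NASH (median 0.491) and 0.50 to 3.71 in NASH-CH rats (median 1.75). All 6 NASH-CH rats were above every control rat and 5 of 6 above every NASH rat. NASH-CH rat 1 was the lowest of its group and rat 5 the highest. On the log2 scale the change was 2.33 ± 0.61 (adjusted p = 0.014) and 2.01 without rat 5 (adjusted p = 0.0070). In NASH it was 0.70 ± 0.72 (adjusted p = 0.62). The difference between NASH-CH and NASH rats was 1.63 ± 0.51 (adjusted p = 0.080). Its receptor Cx3cr1, carried by monocytes and macrophages, was under the count minimum, with 1 to 9 counts in control, 1 to 7 in NASH and 9 to 68 in NASH-CH libraries. In CPM the NASH-CH rats were at 0.196 to 0.879 and overlapped the controls, at 0.0386 to 0.446.

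Ccl21, the ligand that draws Ccr7-bearing T cells and dendritic cells to lymphatic vessels and lymphoid tissue, rose 4.26-fold in NASH-CH livers. Control rats were at 1.62 to 3.17 CPM (median 2.29), NASH rats at 1.89 to 3.75 (median 2.23) and NASH-CH rats at 4.04 to 60.4 (median 8.56). Every NASH-CH rat was above every control and every NASH rat. Rat 5, at 60.4 CPM, was 9.62 times the median of the other 5 NASH-CH rats, whose highest was 11.2. Against control the log2 fold change was 2.09 ± 0.65 (adjusted p = 0.034). It was 1.54 ± 0.32 without rat 5, with a smaller adjusted p of 0.0034. It was not called when any 1 of the control rats or NASH-CH rat 2 or 6 was left out, in 8 of 18 fits, where the adjusted p reached 0.0718. Against NASH rats the log2 fold change was 1.98 ± 0.61 (adjusted p = 0.075), and 1.43 ± 0.30 without rat 5 (adjusted p = 0.010). In NASH against control it was 0.11 ± 0.76 (adjusted p = 0.95). Ccr7, its receptor, was at 0.124 to 0.717 CPM in control, 0.137 to 0.840 in NASH and 0.131 to 0.646 in NASH-CH rats. Ccl19, the other ligand of Ccr7, was at 0.415 to 0.656, 0.231 to 0.822 and 0.423 to 1.18 CPM. Ackr4, the atypical receptor that removes Ccl19 and Ccl21, was at 2.73 to 7.17, 2.31 to 6.17 and 3.82 to 6.4 CPM. The groups overlapped for Ccr7, Ccl19 and Ackr4, and none of these passed in any comparison. Cholangiocyte markers, which rat 5 also held at a high level, summed to 7.92 to 10.4 CPM in control, 6.13 to 12.3 in NASH and 6.29 to 41.1 in NASH-CH rats. The other 5 NASH-CH rats held 17.0 or less. None of 6 cholangiocyte or 6 sinusoidal endothelial markers passed in NASH-CH against control. Against NASH 1 of each passed, Spp1 as higher and Stab1 as lower, beside 4.14% of all genes. Of 8 hepatocyte markers 3 were lower in NASH-CH than in control (Alb, Ttr and Apoa1). Of 8 stellate cell and myofibroblast markers 3 were higher (Rgs5, Col1a1 and Des) and 1 lower (Lrat). Of all genes 8.23% were higher and 8.5% lower. The part of bile duct, hepatocyte or stellate cells in the levels of Cxcr4, Cx3cl1 and Ccl21 was not tested.

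Ccl6, a rodent ligand of Ccr1 made by macrophages, was the member that fell in both models. Control rats were at 47.0 to 82.4 CPM (median 53.2), NASH rats at 25.8 to 43.2 (median 29.9) and NASH-CH rats at 22.6 to 43.2 (median 33.6). No rat of either model reached the lowest control rat. Ccl6 was 47.2% lower in NASH (log2 fold change -0.92 ± 0.18, adjusted p = 0.012) and 43.3% lower in NASH-CH (-0.82 ± 0.19, adjusted p = 0.0062), and both calls were kept whichever of the 18 rats was left out. The same RefSeq gene overlaps both Ccl6 and Ccl3, and different RefSeq genes overlap Ccr7, Cxcl16, Cxcr6, Xcr1 and Ackr4. How reads at these places were assigned is not known. NASH-CH and NASH rats overlapped, with a log2 difference of 0.10 ± 0.18 (95% interval -0.28 to 0.49). Ccl9, the other rodent ligand of Ccr1, was at 220 to 420 CPM in control, 204 to 306 in NASH and 248 to 421 in NASH-CH rats and did not pass. NASH rats differed from control by -0.35 ± 0.16 on the log2 scale (adjusted p = 0.22), and NASH-CH rats by 0.01 ± 0.17 (adjusted p = 0.98). Ccr1 itself was under the count minimum, with 1 to 12 counts in control, 2 to 8 in NASH and 7 to 93 in NASH-CH libraries.

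Ccl24, an eosinophil attractant that acts on Ccr3, fell in NASH-CH livers by 53.4%. It was at 6.36 to 11.6 CPM in control (median 8.62), 4.01 to 12.2 in NASH (median 7.72) and 2.46 to 6.86 in NASH-CH rats (median 4.02). Of the NASH-CH rats, 5 of 6 were below every control rat. Its log2 fold change was -1.10 ± 0.27 (adjusted p = 0.010), against -0.30 ± 0.28 in NASH (adjusted p = 0.58). Ccr3 had 0 to 6 counts in control, 0 to 3 in NASH and 3 to 71 in NASH-CH libraries, the 71 being those of rat 5. In CPM control rats were at 0 to 0.298 and NASH-CH rats at 0.0655 to 0.917, the second highest at 0.217. Ccl5, made by T and NK cells and bound by Ccr1, fell in NASH-CH livers by 50.5%. It was at 0.873 to 2.08 CPM in control (14 to 47 counts, median 1.46 CPM), 0.788 to 1.31 in NASH (median 1.08) and 0.386 to 1.24 in NASH-CH rats (median 0.637). NASH-CH rats 2 and 5 lay within the control range and the other 4 below it. The log2 fold change was -1.02 ± 0.27 (adjusted p = 0.017), and it was -0.77 (adjusted p = 0.060) when libraries were scaled by their totals alone.

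Kupffer cell and cytotoxic lymphocyte markers were set beside these ligands. Kupffer cell markers summed to 203 to 400 CPM in control, 137 to 217 in NASH and 115 to 191 in NASH-CH rats. The highest sum was that of control rat 5, and the other controls were at 203 to 253. Of 5 tested, 1 passed as lower in NASH (Marco) and all 5 in NASH-CH (Cd163, Clec4f, Cd5l, Vsig4 and Marco), where 8.5% of all genes were lower. Among the broader monocyte and macrophage markers, 1 of 7 was higher (Lyz2) and 1 lower (Csf1r) in NASH-CH. NK and cytotoxic cell markers summed to 2.68 to 6.50, 2.14 to 4.03 and 1.56 to 3.92 CPM. In NASH-CH 1 of 3 tested was lower (Gzma, log2 fold change -1.46 ± 0.28, adjusted p = 0.0019). No marker of these lists was at 0 in all rats. The part of these cells in the levels of Ccl6, Ccl24 and Ccl5 was not tested.

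**Figure D2:**
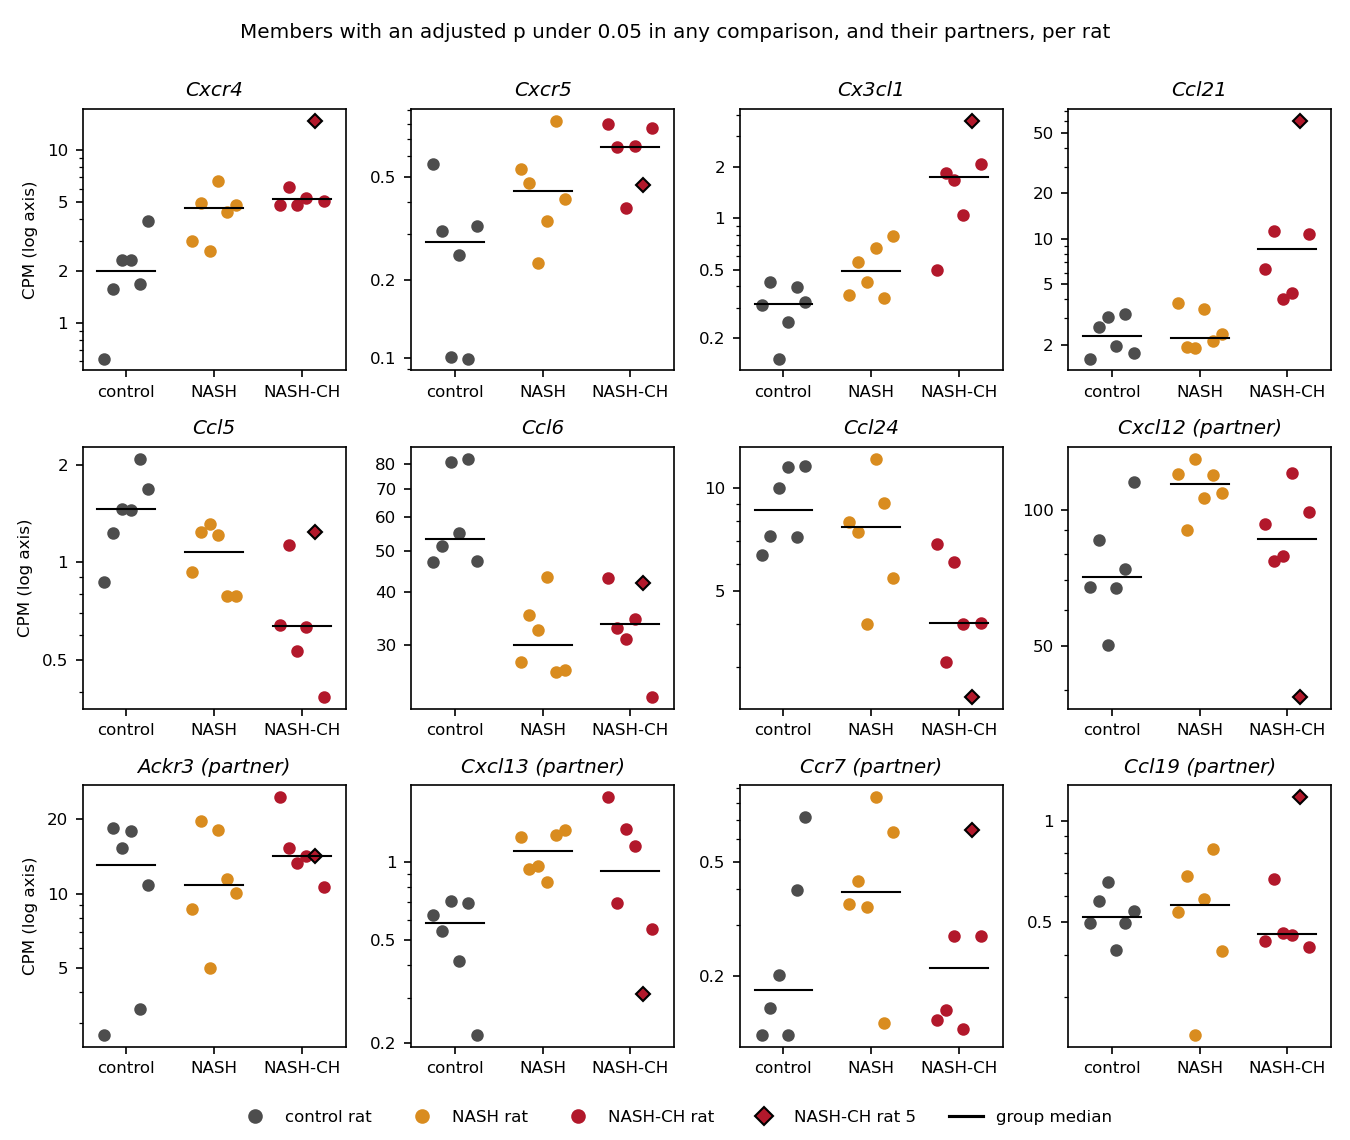
CPM per rat on log axes of the 7 members that passed in any comparison and of 5 ligands or receptors that share a receptor or ligand with them, 6 rats per group, with the group median as a line. All NASH-CH rats lie above all control rats for Cxcr4, Cx3cl1 and Ccl21 and below them for Ccl6; NASH-CH rat 5 (diamond) is the highest point for Cxcr4, Cx3cl1, Ccl21 and Ccl19 and the lowest NASH-CH point for Cxcl12, Cxcl13 and Ccl24.

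A second pattern ran between rats of 1 group rather than between groups. The ligands Cxcl1 and Cxcl2 (neutrophils), Ccl2 and Ccl7 (monocytes), Ccl3 and Ccl4 (macrophages, T and NK cells) and Cxcl10 (activated T cells) were singled out after their values were seen, as the tested members whose log2 CPM had an SD over 2 among control rats. Their SDs were 2.02 to 3.05. The other 23 tested members had a median SD of 0.40 and a highest of 1.23, and 109 of 13265 genes (0.822%) were over 2. Cxcl1 was at 2.73 and 4.24 CPM in control rats 5 and 1, and at 71.2 to 97.8 in the other 4. Ccl3 was at 0.0992 and 0.374 CPM in control rats 5 and 1, and at 9.74 to 20.6 in the other 4. Cxcl10 was at 1.81 and 2.08 CPM in control rats 1 and 5, and at 10.4 to 89.0 in the other 4. All 7 genes had control rats 1 and 5 as their 2 lowest control rats and NASH rat 3 as their lowest NASH rat. Among the 30 members 9 showed both features (30%), the other 2 being Ackr3 and Ccl24, against 313 of all genes tested (2.36%). The rats and both features were read from these same values, and the 7 genes were picked for their spread among control rats. The share is therefore a description and not a test. In NASH rat 3, Cxcl1 was at 3.90 CPM and in the other 5 NASH rats at 17.9 to 68.2. No rat of the NASH-CH group was as low in Cxcl1, where levels ran from 13.8 to 114 CPM. Control rats held the highest group medians of Cxcl1, Cxcl2 and Ccl3, at 73.1, 28.4 and 11.2 CPM. The medians were 20.5, 8.83 and 3.21 CPM in NASH and 39.9, 6.68 and 4.54 CPM in NASH-CH rats.

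**Figure D3:**
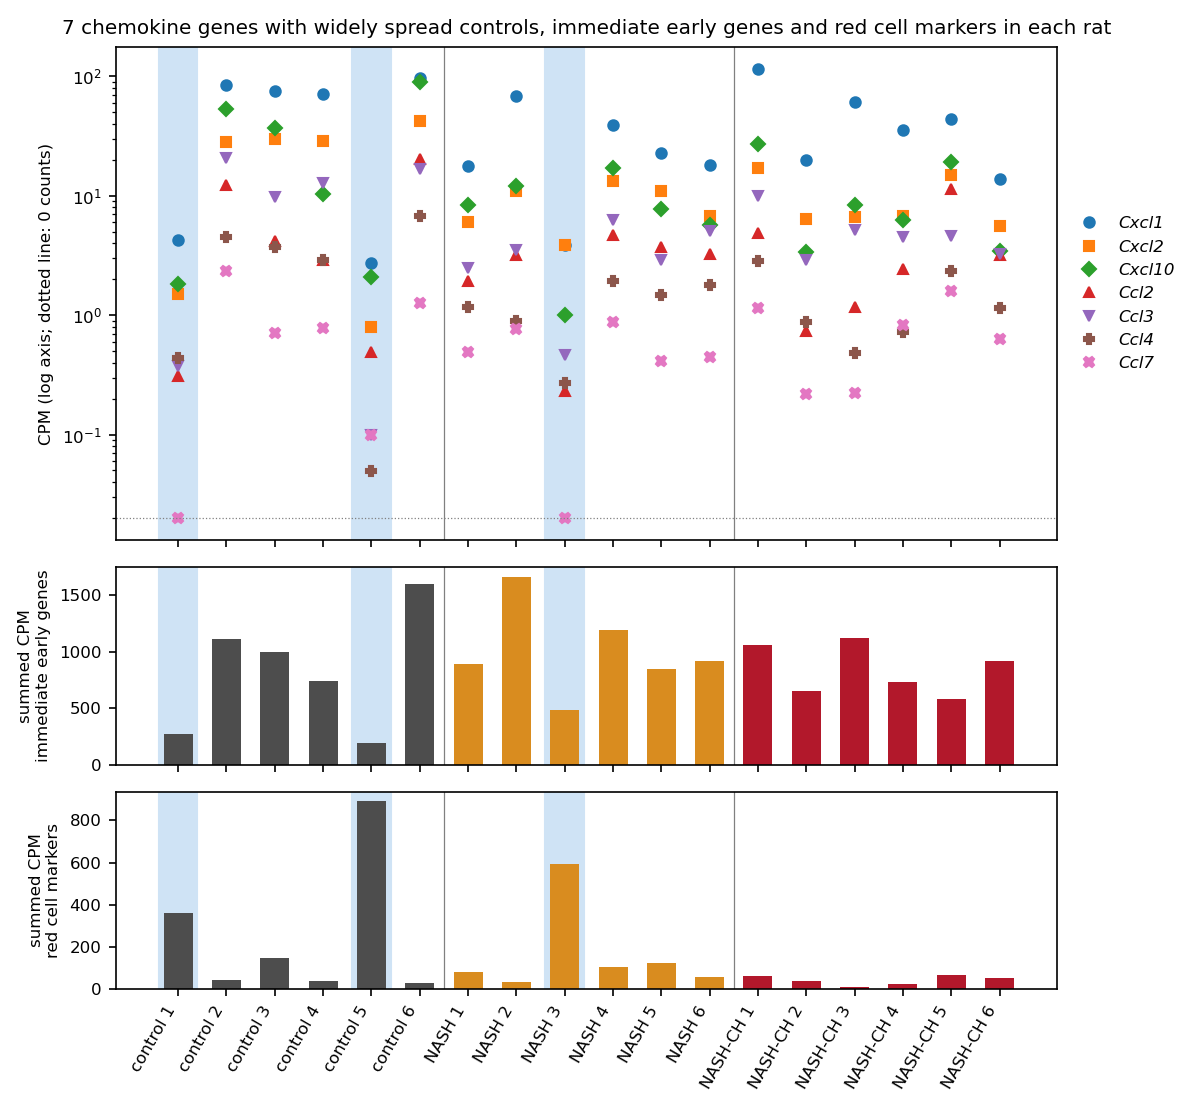
Top, CPM on a log axis of 7 ligands in each of the 18 rats, with 0 counts drawn on the dotted line; middle and bottom, summed CPM of 8 immediate early genes and 4 red cell markers. Control rats 1 and 5 and NASH rat 3 (shaded) hold the lowest ligand levels of their groups, the lowest immediate early sums of their groups (268, 196 and 481 CPM) and the highest red cell sums of all rats (359, 891 and 591 CPM).

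None of these 7 ligands passed in any comparison by limma-voom, edgeR or DESeq2, and 0 had an unadjusted p under 0.05 by limma-voom. Their log2 fold changes ran from -1.21 (Cxcl10) to -0.49 (Cxcl1) in NASH and from -0.83 (Cxcl10) to 0.39 (Cxcl1) in NASH-CH, with standard errors of 0.77 to 1.10. For Cxcl10 in NASH the 95% interval was -3.22 to 0.81. The design therefore left wide intervals for them. Other inducible genes were low in the same 3 rats. Ccrl2, an atypical chemokine-binding receptor outside the symbol rule, was at 0.935, 0.793 and 1.2 CPM in control rats 1 and 5 and NASH rat 3, and at 7.88 to 16.6 in the other control and 2.99 to 5.96 in the other NASH rats. Il1b was at 3.18, 3.57 and 8.21 CPM there, and at 38.7 to 84.1 in the other control and 14.4 to 18.9 in the other NASH rats. Immediate early genes, a list chosen after the data were seen (Fos, Fosb, Junb, Egr1, Ier2, Ier3, Atf3 and Zfp36), summed to 268, 196 and 481 CPM in these rats and to 741 to 1664 CPM in the other control and NASH rats. Red cell markers summed to 359, 891 and 591 CPM there and to 30.2 to 147 CPM in the other control and NASH rats. The part of blood content or of tissue handling in these levels was not tested.

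Cxcl9 and Cxcl11, the other ligands of Cxcr3, varied less between rats than Cxcl10. Cxcl9 was at 5.74 to 11.4 CPM in control, 4.93 to 10.1 in NASH and 4.39 to 24.2 in NASH-CH rats, and control rat 5, low in Cxcl10, held the highest control level of Cxcl9. Cxcl11 was at 6.35 to 12.2, 5.71 to 9.95 and 5.36 to 12.6 CPM, and like Cxcl10 it was highest in control rats 6, 2 and 3 and in NASH-CH rat 1 and lowest of the NASH rats in rat 3. Log2 fold changes were -0.13 ± 0.35 and 0.33 ± 0.32 for Cxcl9, and -0.16 ± 0.21 and -0.15 ± 0.20 for Cxcl11, in NASH and NASH-CH. Cxcl10 and Cxcl11 overlap Art3 in RefSeq. Cxcr3 was under the count minimum, with 1 to 9 counts in control, 6 to 10 in NASH and 5 to 43 in the deeper NASH-CH libraries. The 43 were those of rat 5. In CPM control rats were at 0.0624 to 0.397 and NASH-CH rats at 0.0919 to 0.556, the second highest at 0.340, so the groups overlapped.

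The remaining tested members did not pass by limma-voom. Cxcl16, a membrane-bound ligand of Cxcr6, was at 2.63 to 4.81 CPM in control, 2.70 to 4.58 in NASH and 2.90 to 20.3 in NASH-CH rats. Of the NASH-CH rats 4 of 6 were above every control rat, and rat 5 held the 20.3. The log2 fold change of Cxcl16 in NASH-CH was 0.77 ± 0.38 (adjusted p = 0.18), and 0.39 ± 0.21 without rat 5 (adjusted p = 0.21); edgeR and DESeq2 called it higher, with adjusted p-values down to 0.020. Cxcr6, found on resident T and NK cells, was at 0.249 to 0.610, 0.240 to 0.501 and 0.306 to 0.533 CPM. Cxcl14, a ligand of epithelia, was at 0.624 to 1.61 CPM in control, 0.386 to 0.936 in NASH and 0.640 to 1.85 in NASH-CH rats, with a log2 fold change of -0.89 ± 0.33 in NASH (adjusted p = 0.13). DESeq2 and limma-voom with sample quality weights called Cxcl14 lower in NASH, with adjusted p-values down to 0.038. Xcr1, the receptor of cross-presenting dendritic cells, was at 0.374 to 0.825, 0.557 to 1.18 and 0.546 to 1.19 CPM. Ackr2, which removes inflammatory CC ligands, was at 0.347 to 0.893, 0.386 to 0.926 and 0.137 to 0.782 CPM. Ccl27, a skin-homing ligand of Ccr10, was at 0.454 to 0.748, 0.514 to 0.790 and 0.326 to 1.08 CPM, and it overlaps Il11ra1 in RefSeq.

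The 26 members under the count minimum were Cxcl3, Cxcl6, Cxcl17, Ccl1, Ccl11, Ccl12, Ccl17, Ccl20, Ccl22, Ccl25, Ccl26, Ccl28, Xcl1, Ccr1, Ccr1l1, Ccr2, Ccr3, Ccr4, Ccr6, Ccr8, Ccr9, Ccr10, Cxcr1, Cxcr2, Cxcr3 and Cx3cr1. They include Cxcr2 and Ccr2, the main receptors of neutrophil- and monocyte-attracting ligands. Cxcr2 had 0 to 3 counts in control, 0 to 5 in NASH and 0 to 18 in NASH-CH libraries. Ccr2 had at most 1 count in any control or NASH library and 0 to 15 in NASH-CH. In 11 of the 26, no library reached 10 counts. NASH-CH rat 5, the deepest library, had the most counts for 19 of the 26. Cxcl6, a neutrophil attractant, had 1 to 6 counts in control, 0 to 4 in NASH and 3 to 31 in the other 5 NASH-CH libraries, and 349 in rat 5. At these counts differences between groups were not judged.

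**Figure D4:**
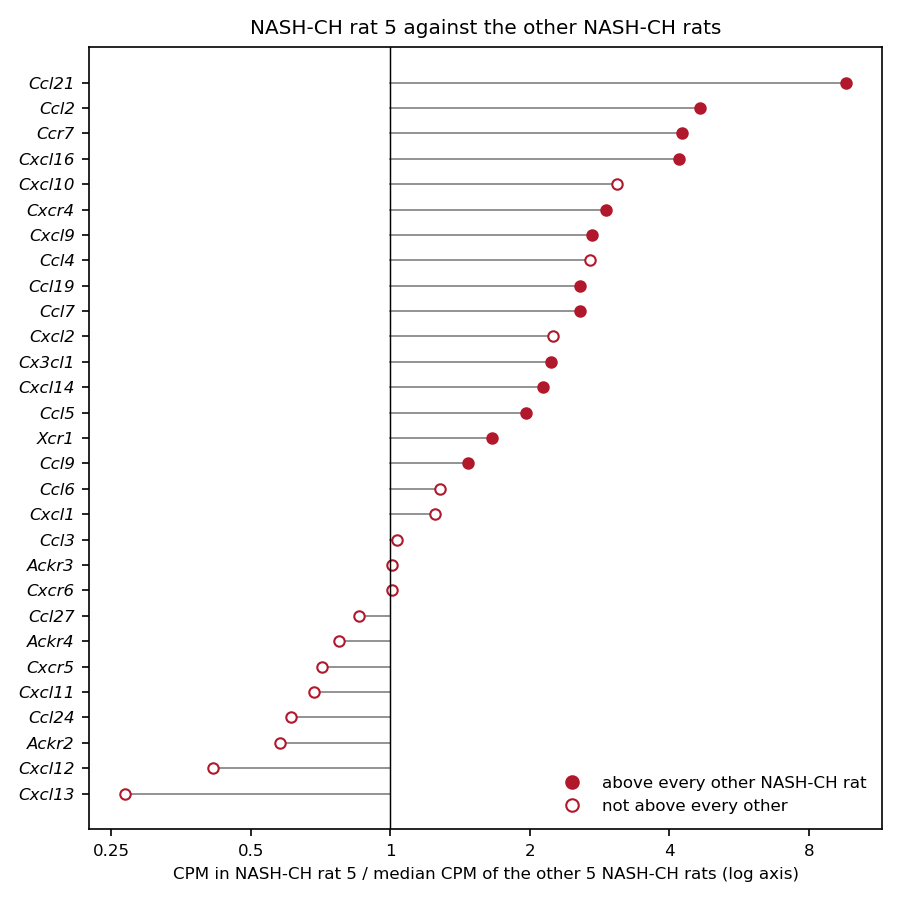
CPM in NASH-CH rat 5 divided by the median of the other 5 NASH-CH rats (log axis) for 29 tested members. The ratio runs from 0.27 (Cxcl13) to 9.62 (Ccl21), and filled points lie above every other NASH-CH rat.

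NASH-CH rat 5 was high in some members and low in others. Ratios to the median of the other 5 NASH-CH rats were 9.62 for Ccl21, 4.66 for Ccl2, 4.25 for Ccr7 and 4.19 for Cxcl16, and 0.27 for Cxcl13 and 0.41 for Cxcl12. For 10 of 30 members rat 5 was the highest of all 18 rats (33.3%, against 15.3% of all genes). Beside this, it had the highest sums of all 18 rats for neutrophil (7.37 CPM), T cell (21.6), dendritic cell (13.1), monocyte and macrophage (181) and cholangiocyte markers (41.1), and the lowest for hepatocyte (83048) and sinusoidal endothelial markers (141). Of the neutrophil markers 7 of 9 were under the count minimum. Rat 5 was not the highest for NK and cytotoxic (3.92 CPM) or B and plasma cell markers (2.58 CPM). Its Kupffer cell sum was 134 CPM, within the 115 to 191 CPM of its group. Without rat 5, 8 members passed in NASH-CH against control, the 7 above among them, and 1 (Ccl21) passed in NASH-CH against NASH. Of all 13265 genes tested, 2230 and 509 passed in these comparisons without rat 5. Since all rats share 1 estimate of the spread, 4 members then passed in NASH against control: Ccl6, Cxcr4, Cxcl12 and Cxcl14. Calls over all genes in that comparison rose as well, from 390 with rat 5 to 718 without it.

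Genes that act with chemokine receptors were followed by lists of related function. Between NASH and control rats 0 of 71 tested genes of these lists passed by limma-voom, beside 2.94% of all genes. Of the 71, 5 had an unadjusted p under 0.05, and edgeR and DESeq2 each called 1, Rgs1. Between NASH-CH and control rats 6 of 71 were higher and 0 lower, beside 8.23% of all genes higher and 8.5% lower, so the share that was higher was near that of all genes. Among receptor signalling genes 4 of 22 rose: Gnb1 (0.37 ± 0.07, adjusted p = 0.0016) and Gnai1 (0.97 ± 0.24, adjusted p = 0.012), subunits of G proteins, Rac1 (0.24 ± 0.07, adjusted p = 0.028), a GTPase of cell movement, and Elmo1 (1.21 ± 0.39, adjusted p = 0.042), a scaffold of Rac activation. Among desensitization genes 1 of 11 rose, Rgs1 (1.56 ± 0.32, adjusted p = 0.0031), which switches off Gi signalling in lymphocytes. Rgs1 was at 1.08 to 3.63 CPM in control, 2.60 to 6.00 in NASH and 3.68 to 9.47 in NASH-CH rats. Among family genes with other names 1 of 6 rose, Pf4 (2.73 ± 0.55, adjusted p = 0.0028), the platelet chemokine also known as Cxcl4. Pf4 was at 0.0386 to 0.561 CPM in control, 0.0429 to 0.546 in NASH and 0.524 to 1.38 in NASH-CH rats, and 1 control and 1 NASH rat reached the NASH-CH range. The platelet markers, of which Pf4 is one, summed to 6.22 to 11.7, 6.26 to 8.78 and 5.29 to 8.09 CPM, and Itga2b, the other one tested, was lower in NASH-CH. None of the 11 cytokine inducers and their receptors or 9 adhesion molecules tested passed in NASH-CH. Pf4 (1.82 ± 0.46, adjusted p = 0.031) and Gnb1 (0.33 ± 0.07, adjusted p = 0.0092) also passed in NASH-CH against NASH.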

How the data were processed

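RNA of 18 rat livers was sequenced by the authors from stranded mRNA libraries. The labels name the RNAqueous-Micro kit and the study's methods miRNeasy. The authors trimmed reads with Trim Galore, aligned them to Rnor_6.0 with STAR and quantified Ensembl 95 genes with RSEM. The deposited values are expected counts per gene, not normalized. Tool versions and the strand setting are not given in the sources used here.

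Expected counts were rounded, and genes with at least 10 counts in 6 or more samples kept. TMM scaling (edgeR 4.0.16) and limma-voom (limma 3.58.1, R 4.3.3) gave 1 fit of 18 rats with 3 group means. P-values are two-sided and Benjamini-Hochberg adjusted over the genes tested per comparison, with a threshold of 0.05. CPM are per TMM-scaled total and were not divided by gene length, so levels are compared within a gene. The members, gene lists and tests were chosen with earlier results of these data known. Every row that the symbol rule matches is named, except 1 member that entered the counts and is not reported here; single rats are plotted for members that passed and their partners, and at most 4 genes per pathway list are named, by adjusted p. Promoters came from RefSeq (GRCr8), by symbol. Rats were housed 2 per cage, which shared a cage is not given, and p-values measure the spread between these rats. Tests were checked on simulated counts. No duplicate library was found. DESeq2 1.42.0, edgeR's quasi-likelihood test, other scalings and filters, sample weights, a replicate block, thinning and leaving out each rat were tried.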

Additional observations from a re-analysis of the deposited data

Results flagged for a closer look

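In 87 groups of 6 rats (29 genes in 3 groups), the gap between the extreme rat and its nearest neighbour, divided by the group's range of log2 CPM, was compared with Dixon's 95% critical value, which chance passes in about 1 of 20 groups. It was passed 5 times. NASH rat 3 was far below the other NASH rats in Ccl7 (gap 0.751 of the range), Ccl2 (0.688) and Ccl3 (0.637), with 0 CPM of Ccl7 against 0.411 to 0.882 in the others. NASH-CH rat 5 was far above the others of its group in Cxcr4 (0.781), at 14.8 CPM against 4.82 to 6.17. Control rat 6 was far below the other controls in Ackr4 (0.757), at 2.73 CPM against 5.67 to 7.17.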

How the results depend on the processing

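Of the 8 calls in the report, all but Ccl5, Cxcr5 and Ccl21 kept direction and threshold in every other fit tried and in every fit without 1 rat, apart from the rule that also required a log2 fold change of at least 1. Ccl5 was lost with library size only, and Cxcr5 and Ccl21 with the 2 groups fitted alone. Against control, NASH-CH members called were 8 with edgeR, DESeq2 or sample quality weights, 6 with library size only and 5 with the 2 groups alone; Cxcl16 was gained as higher with edgeR and DESeq2. Of all 13265 genes, 2219 passed there in the main fit. With edgeR 2498 genes passed, with DESeq2 2896 and with sample quality weights 2441. With library size only 3317 passed, and with the 2 groups alone 1433. Library size only moved the median of all genes to 0.23 (NASH) and 0.27 (NASH-CH). Members called in NASH against control were 3 with DESeq2, 2 with library size only or with the 2 groups alone, 4 with sample quality weights and 0 when a log2 fold change of at least 1 was also required. Over all genes 390 passed in NASH in the main fit, 639 with edgeR, 1218 with DESeq2 and 1491 with sample quality weights. With library size only 851 genes passed, and with the 2 groups alone 657. Against NASH, NASH-CH members called were 2 with edgeR (Cx3cl1 and Ccl21), 4 with DESeq2, 2 without a filter (where, of members under the count minimum, Cxcl6 and Cx3cr1 also passed as higher and Ccl1 as lower, with adjusted p-values of 0.012, 0.025 and 0.026, and against control Ccr4 passed as higher and Ccl1, Ccl12 and Ccl26 as lower) and 1 with sample quality weights; the cause was not tested. Pathway genes called in NASH were 1 with edgeR, DESeq2, library size only, the 2 groups alone or thinned counts, and 3 with sample quality weights. In NASH-CH they were 11 with DESeq2, 21 with library size only, 10 without a filter, 10 with weights and 3 at a log2 fold change of at least 1; against NASH they were 5 with DESeq2 and 1 with edgeR, library size only, the 2 groups alone or that fold change. Over all genes 549 passed against NASH in the main fit, 644 with edgeR, 986 with DESeq2 and 779 with weights. Without a filter 5495 of 20887 genes passed in NASH-CH against control and 2649 against NASH. Leaving out 1 rat gave 1 to 4, 5 to 8 and 0 to 1 members and 0 to 1, 4 to 9 and 1 to 3 pathway genes, in the order NASH, NASH-CH, NASH-CH against NASH. Calls over all genes ran from 128 to 961, 1544 to 2414 and 350 to 604 in that order. The largest member counts came without NASH-CH rat 5.

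Deviations of rats with the same number correlated weakly (mean 0.048, 0.070 and 0.016, and over 0.1 in 2, 1 and 0 of 6 pairs). In each comparison 2 of 6 rats correlated best with their own number. These values cannot exclude a shared cage or day, and the main fit did not pair rats by number. A replicate block gave 1, 7 and 2 members (Cx3cl1 and Ccl21 in the last).

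No called value changed sign. Of uncalled log2 fold changes, these did. In NASH, Ccl19 was 0.039 with edgeR, 0.036 with DESeq2, 0.16 with library size only, 0.012 with weights and 0.0095 with the block; library size only gave 0.069 for Cxcl9, 0.079 for Cxcl11 and 0.13 for Cxcl16. In NASH-CH, edgeR and DESeq2 gave -0.20 and -0.18 for Ccl7, -0.22 and -0.23 for Cxcl1, -0.999 and -0.99 for Ccl3, and 0.11 and 0.11 for Ccl27; library size only gave 0.10 for Ccl2, 0.18 for Ccr7, 0.10 for Ackr4, 0.13 for Cxcl11 and 0.25 for Ccl27; weights gave -0.013 for Ccl7, -0.000254 for Ccl3, -0.023 for Ccl19, 0.0092 for Cxcl11 and -0.0017 for Ccl9; the block gave -0.090 for Ccl7, -0.78 for Ccl3 and 0.050 for Ccl27; thinning gave -0.044 for Cxcr6 and -0.00356 for Ccl19. Against NASH, thinning gave 0.016 for Xcr1; weights gave -0.080 for Ccl2, -0.069 for Ccl4 and -0.035 for Ccl19; the block gave -0.053 for Ccl4. Without 1 rat, values spanned zero in NASH for Ccl7 (-1.26 to 0.18), Ccl19 (-0.21 to 0.15), Ackr2 (-0.019 to 0.25) and Ackr3 (-0.063 to 0.46). In NASH-CH they did for Ccl7 (-0.31 to 0.84), Cxcl1 (-0.25 to 0.72), Ccl2 (-0.74 to 0.37), Ccr7 (-0.41 to 0.32), Ccl3 (-0.80 to 0.60), Ccl19 (-0.16 to 0.21), Ccl9 (-0.093 to 0.087) and Ccl27 (-0.19 to 0.13). Against NASH they did for Cxcl2 (-0.086 to 0.25), Xcr1 (-0.19 to 0.062), Ccl2 (-0.19 to 0.75), Ccl4 (-0.27 to 0.39), Ccl19 (-0.11 to 0.33), Cxcl10 (-0.16 to 0.64) and Cxcl11 (-0.12 to 0.12). The filterByExpr setting left out Ccr7. Totals cover counting error only, and the 6 rats per group limit the precision.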
